A study of Mus musculus with 10 samples.

Results

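The collagen gene family was described here in 10 bulk tumors of a mouse melanoma model. Its members were all genes in the expression table whose symbol is Col, a number, the letter a and a number, which gave 44 of 29890 listed genes, each encoding 1 collagen alpha chain. RNA was sequenced from tumors grown under the skin of female C57BL/6J mice, which received cells of the melanoma line B2905-M4 at 7 to 8 weeks of age. In 5 tumors the cells are labelled as overexpressing Adamts7, a metalloproteinase released into the matrix, and in the other 5 they carried a vector control. All tumors came from 1 cell line and no group received immunotherapy. The sources used here do not name the promoter that drives Adamts7. Adamts7 tumors grew faster, and 2 of them were taken on day 35, 3 tumors of either group on day 45, and the last 2 vector tumors on day 50. No day is tied to a tumor, so time of harvest and group cannot be told apart. The labels do not say that each tumor came from a separate animal, and p-values measure the spread between these tumors.

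Collagens are proteins of 3 chains wound into a triple helix, and all but the transmembrane class are secreted. Fibrillar collagens form the banded fibers of connective tissue, network collagens form sheets such as basement membranes, beaded filament collagens form microfibrils around cells, and FACITs, the fibril-associated collagens with interrupted triple helices, sit on the surface of fibrils. Chains are hydroxylated and folded in the endoplasmic reticulum, trimmed by propeptidases outside the cell and crosslinked by lysyl oxidases. In solid tumors fibroblasts are a known source of fibrillar collagen, and endothelial cells, pericytes, Schwann cells and tumor cells make collagens of basement membranes.

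Promoter sequences were available for 35 of the 44 genes, in 38 windows of 300 bases that run from 250 bases before to 50 bases after an annotated start (RefSeq, GRCm38.p6). They are shown for 3 genes with abundant transcripts, whose highest levels were in Adamts7 tumor 1 and vector tumors 3 and 5. Whether these genes vary together was not tested. Each is printed 5′ to 3′ on the strand of its gene, as the 250 bases before the start. The first lies at chr1:45311288-45311537 on the plus strand, the second at chr10:76623631-76623880 on the minus strand and the third at chr1:90843972-90844221 on the minus strand, none of which overlaps an annotated exon. Capitals mark matches to TATAAA, to CCAAT and to GGGCGG on either strand, CCGCCC being the reverse complement of the last.
Col3a1: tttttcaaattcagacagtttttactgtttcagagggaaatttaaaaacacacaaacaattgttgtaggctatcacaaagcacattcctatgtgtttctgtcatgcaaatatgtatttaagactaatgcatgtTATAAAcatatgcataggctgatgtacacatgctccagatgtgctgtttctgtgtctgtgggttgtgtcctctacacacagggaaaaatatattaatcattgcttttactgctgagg
Col6a2: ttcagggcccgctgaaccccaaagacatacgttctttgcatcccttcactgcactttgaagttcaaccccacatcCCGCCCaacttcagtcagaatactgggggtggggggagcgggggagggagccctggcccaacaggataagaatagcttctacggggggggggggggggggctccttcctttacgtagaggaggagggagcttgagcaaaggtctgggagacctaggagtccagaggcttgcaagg
Col6a3: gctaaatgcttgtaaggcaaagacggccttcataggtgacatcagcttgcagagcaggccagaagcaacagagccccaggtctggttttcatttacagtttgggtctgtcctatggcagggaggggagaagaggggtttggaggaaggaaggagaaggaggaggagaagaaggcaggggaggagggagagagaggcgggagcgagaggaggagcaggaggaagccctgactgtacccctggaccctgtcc
The window of Col3a1 held a TATAAA match and that of Col6a2 a GGGCGG match on the opposite strand, while the printed Col6a3 bases held none of the 3. Of the 38 collagen windows, 13.2% held TATAAA, 34.2% CCAAT and 60.5% GGGCGG, against 13.6%, 37.4% and 35.7% of all 32851 windows of the same length. These matches are letters in a window and not measured binding sites.

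Col4a1 and Col4a2 encode the chains that assemble with each other in the type IV collagen of all basement membranes, and they lie head to head on chromosome 8. Their annotated starts are 21 bases apart on opposite strands, so that their promoter windows share 78 bases. The plus strand at chr8:11312801-11312830 is shown with the 22 bases from one start to the other in capitals.
Col4a1 and Col4a2 starts: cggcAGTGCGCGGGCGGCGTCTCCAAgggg

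Levels are given as TPM, a transcript abundance scaled to gene length and to the total of each library. TPM keeps no depth, so the number of reads behind each value is unknown. Collagen transcripts summed over the 44 genes to 3479, 2394, 2171, 1207 and 1017 TPM in Adamts7 tumors 1 to 5. In vector tumors 1 to 5 the sums were 1802, 2066, 3672, 1751 and 3545 TPM. Adamts7 tumor 1 and vector tumors 3 and 5 were therefore high, Adamts7 tumors 4 and 5 were low, and the groups overlapped. The family thus took 0.102% to 0.368% of all TPM of a tumor. The mean sums were 2054 ± 994 TPM in Adamts7 and 2568 ± 959 TPM in vector tumors (SD, n = 5 each). In bulk tumors, fewer collagen-producing cells and less collagen RNA per cell cannot be told apart.

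**Figure D1:**
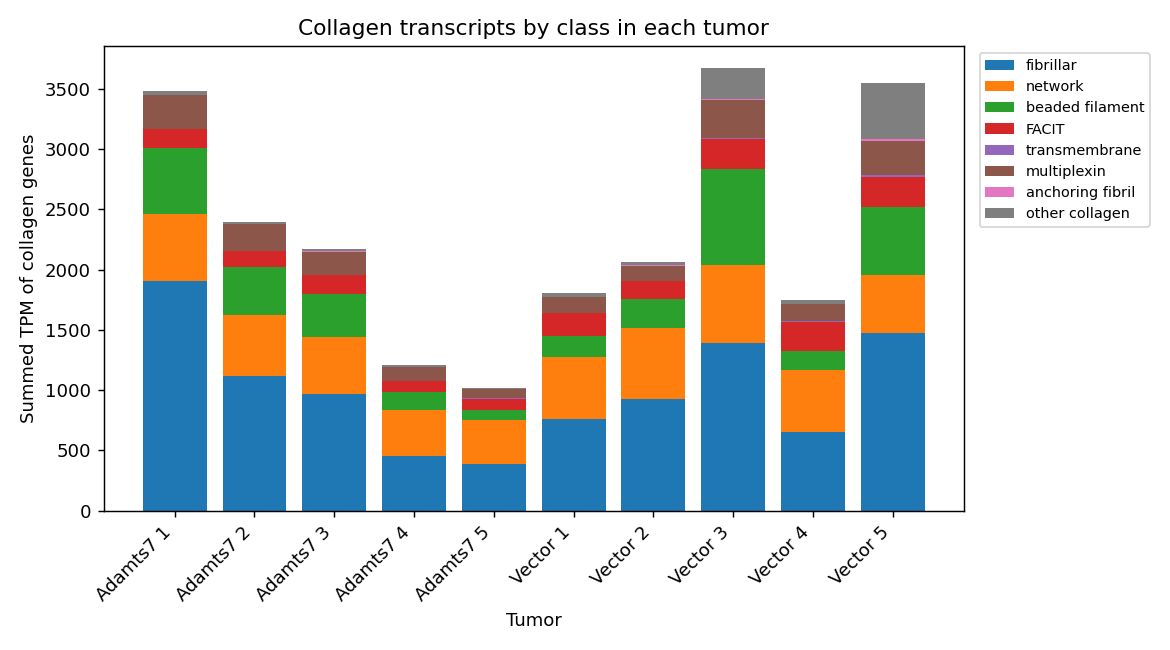
Bars give the summed TPM of the collagen genes of each class (y axis) in each of the 10 tumors (x axis), stacked by class. Adamts7 tumor 1 and vector tumors 3 and 5 reached 3479, 3672 and 3545 TPM, and the class of other collagens is visible as a thick block in vector tumors 3 and 5 alone.

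Adamts7 itself was at 74.8 to 96.0 TPM in Adamts7 tumors 1 to 4, at 18.2 TPM in the tumor labelled Adamts7 5 and at 6.49 to 28.3 TPM in the vector tumors. The level in the tumor labelled Adamts7 5 was below that of vector tumors 3 and 5, and directions below take its label as given. Vector tumors 3 and 5 also stood apart in cell type markers. The summed melanocyte markers came to 312 and 1909 TPM in these and to 8375 to 22967 TPM in the other 8 tumors. The T cell markers were at 336 and 259 TPM in them and at 16.1 to 49.0 TPM in the others. Fibroblast markers other than collagens summed to 457, 323, 268, 137 and 155 TPM in Adamts7 tumors 1 to 5. In vector tumors 1 to 5 they summed to 173, 288, 796, 192 and 684 TPM, with all 11 of these markers detected in each tumor. The 4 tumors with the highest fibroblast sums, vector 3, vector 5, Adamts7 1 and Adamts7 2, were also the 4 with the highest collagen sums. Not every fibroblast marker followed the sum. Dcn, with the highest value of the list, peaked in vector tumor 3 at 229 TPM. Fap peaked in Adamts7 tumor 4 at 18.0 TPM and was at 6.05 TPM in vector tumor 5. In vector tumor 4 skeletal muscle markers summed to 236 TPM, against at most 2.35 TPM elsewhere. The part of these differences between tumors in the collagen values was not tested, and group values are given below with and without vector tumors 3 and 5 where that turns them.

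No collagen gene passed the test between Adamts7 and vector tumors. Most collagen genes had lower fitted values in Adamts7 tumors, but the groups overlapped in every tested collagen gene. Once vector tumors 3 and 5 were left out, collagen genes were divided nearly evenly between higher and lower values. The comparison asked whether overexpressed Adamts7 goes with a different set of collagen transcripts, and used limma, a linear model with a variance shared over genes, on log2(TPM + 1) of the 15276 genes whose mean reached 1 TPM. An adjusted p under 0.05 was called. Of the 44 collagen genes, 31 passed this filter and 13 did not. By limma with Benjamini-Hochberg adjustment, 0 of the 31 were higher and 0 were lower in Adamts7 tumors, against 0.0262% and 0.196% of all tested genes. At an unadjusted p under 0.05, 0 were higher and 5 were lower, namely Col4a1, Col5a2, Col11a1, Col16a1 and Col28a1, where the backgrounds were 4.86% and 15.3%. The 5 of 31 are a share near that background. None of the 31 separated the groups without overlap, against 1.11% of all tested genes in the higher and 3.78% in the lower direction. In the same test Adamts7 itself was not called, with a log2 fold change of 2.21 (SE 0.54, limma adjusted p = 0.104). A gene that was not called is therefore not shown to be unchanged.

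Log2 fold changes, always Adamts7 minus vector, were above 0 for 7 and below 0 for 24 of the 31 genes, where 39.8% of all tested genes were above and 60.2% below 0. Their median was -0.34, beside -0.10 for all tested genes. Without vector tumors 3 and 5, the median of the 30 collagen genes then tested was -0.04, 14 were above and 16 below 0, and the median of all 14878 genes was -0.10, with 64.3% of them below 0. With the tumor labelled Adamts7 5 also removed, the collagen median was 0.10, with 18 above and 12 below 0, and 60.8% of all genes were below 0. In the limma fit that left out vector tumors 3 and 5 alone, 0 collagen genes were called higher and 0 lower, against 0.0202% and 0.202% of all genes. These 2 vector tumors were above the other 3 vector tumors in 19 of the 31 genes, and above all other 8 tumors in 11. Those 11 were Col5a1, Col5a2, Col6a3, Col7a1, Col11a1, Col13a1, Col15a1, Col16a1, Col26a1, Col27a1 and Col28a1, from every class but the network collagens. They were below the other 3 vector tumors in 4 genes, Col8a2, Col12a1, Col18a1 and Col20a1. These patterns were noticed in the values and carry no test.

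Collagen genes varied more within a group than the typical gene. The median SD within groups was 0.64 on the log2 scale for the 31 genes and 0.34 for all tested genes, and 28 of the 31 lay above the latter. The highest tumor exceeded the lowest by a median of 6.63-fold. The highest value fell in Adamts7 tumor 1 for 9 genes, in vector tumor 3 for 8 and in vector tumor 5 for 7. The lowest fell in the tumor labelled Adamts7 5 for 16 genes and in Adamts7 tumor 4 for 7.

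The authors' deposited table of the same groups, made with a count model, gives an adjusted p for 39 of the 44 genes. It holds 4 collagen genes as lower and 0 as higher in Adamts7 tumors at an adjusted p under 0.05, against 5.48% and 2.48% of its 18796 genes. In the authors' deposited table the log2 fold changes of the 4 were -3.20 for Col28a1 (SE 0.73, adjusted p = 0.000921), -1.68 for Col6a4 (SE 0.40, adjusted p = 0.00147), -1.81 for Col11a1 (SE 0.50, adjusted p = 0.00998) and -0.82 for Col16a1 (SE 0.28, adjusted p = 0.0477). It was fitted to the same tumors and is no independent support. In the limma test Col28a1, Col11a1 and Col16a1 were not called, and Col6a4 lay below the filter.

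**Figure D2:**
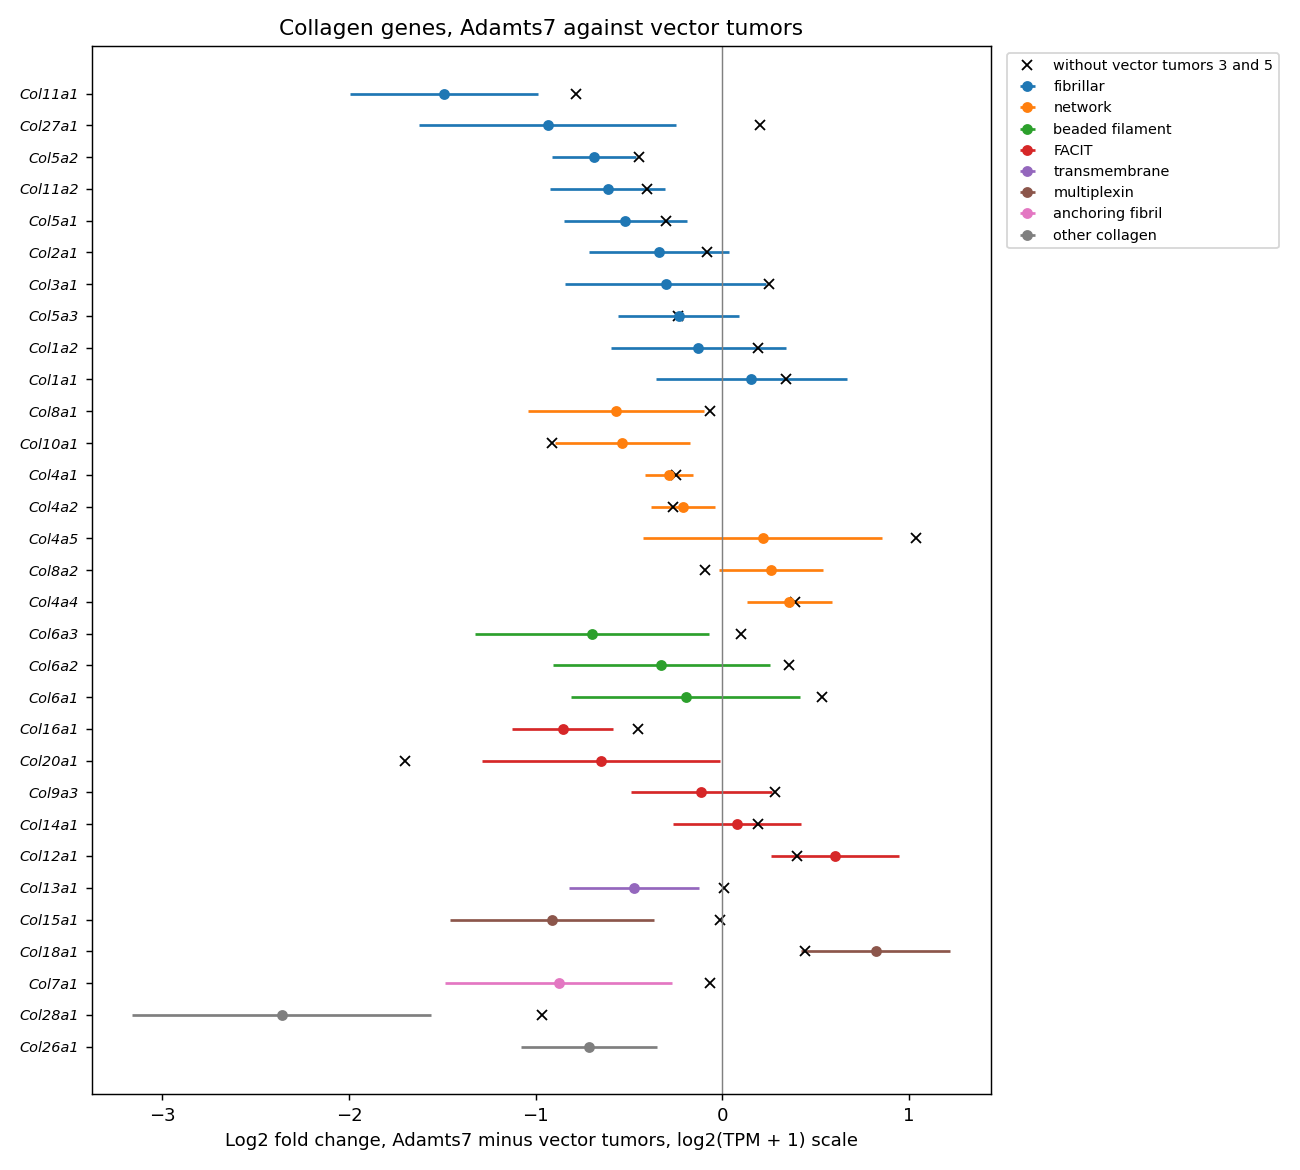
Points give the log2 fold change of each of the 31 tested collagen genes (x axis, Adamts7 minus vector on the log2(TPM + 1) scale), bars its standard error, and crosses the value without vector tumors 3 and 5. Genes are grouped by class, and 24 points lie below 0, while the crosses of the 30 genes still tested divide into 14 above and 16 below it.

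Fibrillar collagens were the most abundant class, with 11 members, 10 of them tested. Their sum was 1910 TPM in Adamts7 tumor 1 and 389 TPM in the tumor labelled Adamts7 5, with vector tumors between 655 and 1475 TPM. Of the 10 genes, 0 were called, 1 had a log2 fold change above 0 and 9 below it, and the median was -0.43. It was -0.16 without vector tumors 3 and 5, and 0.12 with the tumor labelled Adamts7 5 also removed.

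Col1a1 encodes the major chain of type I collagen, the main collagen of skin and bone. Its levels were 520.0, 311, 258, 96.5 and 71.1 TPM in Adamts7 tumors 1 to 5 and 166, 234, 193, 94.3 and 238 TPM in vector tumors 1 to 5. The Adamts7 values spanned the whole vector range, from Adamts7 tumor 1 at the top to the tumor labelled Adamts7 5 at the bottom. Col1a1 had a log2 fold change of 0.15 (SE 0.51, limma adjusted p = 0.879), which was below 0 when Adamts7 tumor 1, Adamts7 tumor 2 or vector tumor 4 was left out. Col1a2, the partner chain, was at 80.2 to 459.7 TPM in Adamts7 and 110.2 to 288 TPM in vector tumors.

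Col3a1, the chain of type III collagen of elastic and healing tissue, was at 654, 341, 301, 111 and 113 TPM in Adamts7 tumors. In vector tumors Col3a1 was at 214, 280.0, 517, 141 and 552 TPM. Adamts7 tumor 1 was again highest, vector tumors 5 and 3 came next, and the groups overlapped. Col3a1 had a log2 fold change of -0.30 (SE 0.54, limma adjusted p = 0.760), which was 0.25 without vector tumors 3 and 5.

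Col5a2, a chain of type V collagen, which starts and narrows type I fibrils, was at 117, 96.4, 81.9, 64.3 and 85.4 TPM in Adamts7 tumors. In vector tumors Col5a2 was at 108, 94.9, 186, 165 and 179 TPM. Vector tumors 3, 4 and 5 were above every Adamts7 tumor, and vector tumors 1 and 2 were within the Adamts7 range. The means were 89.1 ± 19.6 and 147 ± 42.3 TPM (SD, n = 5 each), with a log2 fold change of -0.69 (SE 0.22, limma adjusted p = 0.154). Its partner Col5a1 was at 25.2 to 100.1 TPM in Adamts7 and 60.3 to 108 TPM in vector tumors, and Col5a3 at 7.62 to 31.1 and 20.3 to 29.2 TPM.

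Col11a1 encodes a chain of type XI collagen, which is best known from cartilage and is also made by fibroblasts of some tumors. Its levels were 7.21, 6.68, 4.65, 5.37 and 2.40 TPM in Adamts7 tumors and 12.9, 4.05, 40.5, 14.7 and 28.5 TPM in vector tumors. All vector tumors but the second were above every Adamts7 tumor. The log2 fold change was -1.49 (SE 0.50, limma adjusted p = 0.163), and without vector tumors 3 and 5 it was -0.79 (limma adjusted p = 0.484). Col27a1, another fibrillar collagen of cartilage, reached 58.5 and 56.4 TPM in vector tumors 3 and 5, and lay at 3.23 to 17.6 TPM in the other 8.

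Chondrocyte markers were low, and 3 of 7 stayed below 1 TPM in all tumors. The 7 markers summed to 32.9 and 45.8 TPM in vector tumors 3 and 5, to 21.5 TPM in the tumor labelled Adamts7 5 and to 1.75 to 6.26 TPM in the other 7. Acan, the core protein of cartilage aggrecan, reached 8.08 and 32.6 TPM in vector tumors 3 and 5, and was at most 1.12 TPM elsewhere. Hapln1, a link protein of cartilage matrix, reached 21.9 TPM in vector tumor 3, 9.42 TPM in vector tumor 5 and 15.4 TPM in the tumor labelled Adamts7 5, where Col11a1 and Col27a1 were lowest. Sox9, a transcription factor of cartilage, was highest in that tumor at 5.72 TPM, and Matn3, a cartilage matrilin, was listed at 0 in vector tumor 3, stood at 0.1 TPM in vector tumor 5 and reached 1.78 TPM in vector tumor 2. Comp, a cartilage matrix protein known as a substrate of Adamts7, was at 0.09 to 0.61 TPM. Col2a1, the chain of cartilage fibrils, was at 0.05 to 3.23 TPM and Col11a2 at 0.35 to 3.22 TPM in the 10 tumors. Whether cells of a cartilage type add to Col11a1 or Col27a1 was not tested. Col24a1, at 0.01 to 0.49 TPM, was the fibrillar gene below the filter.

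**Figure D3:**
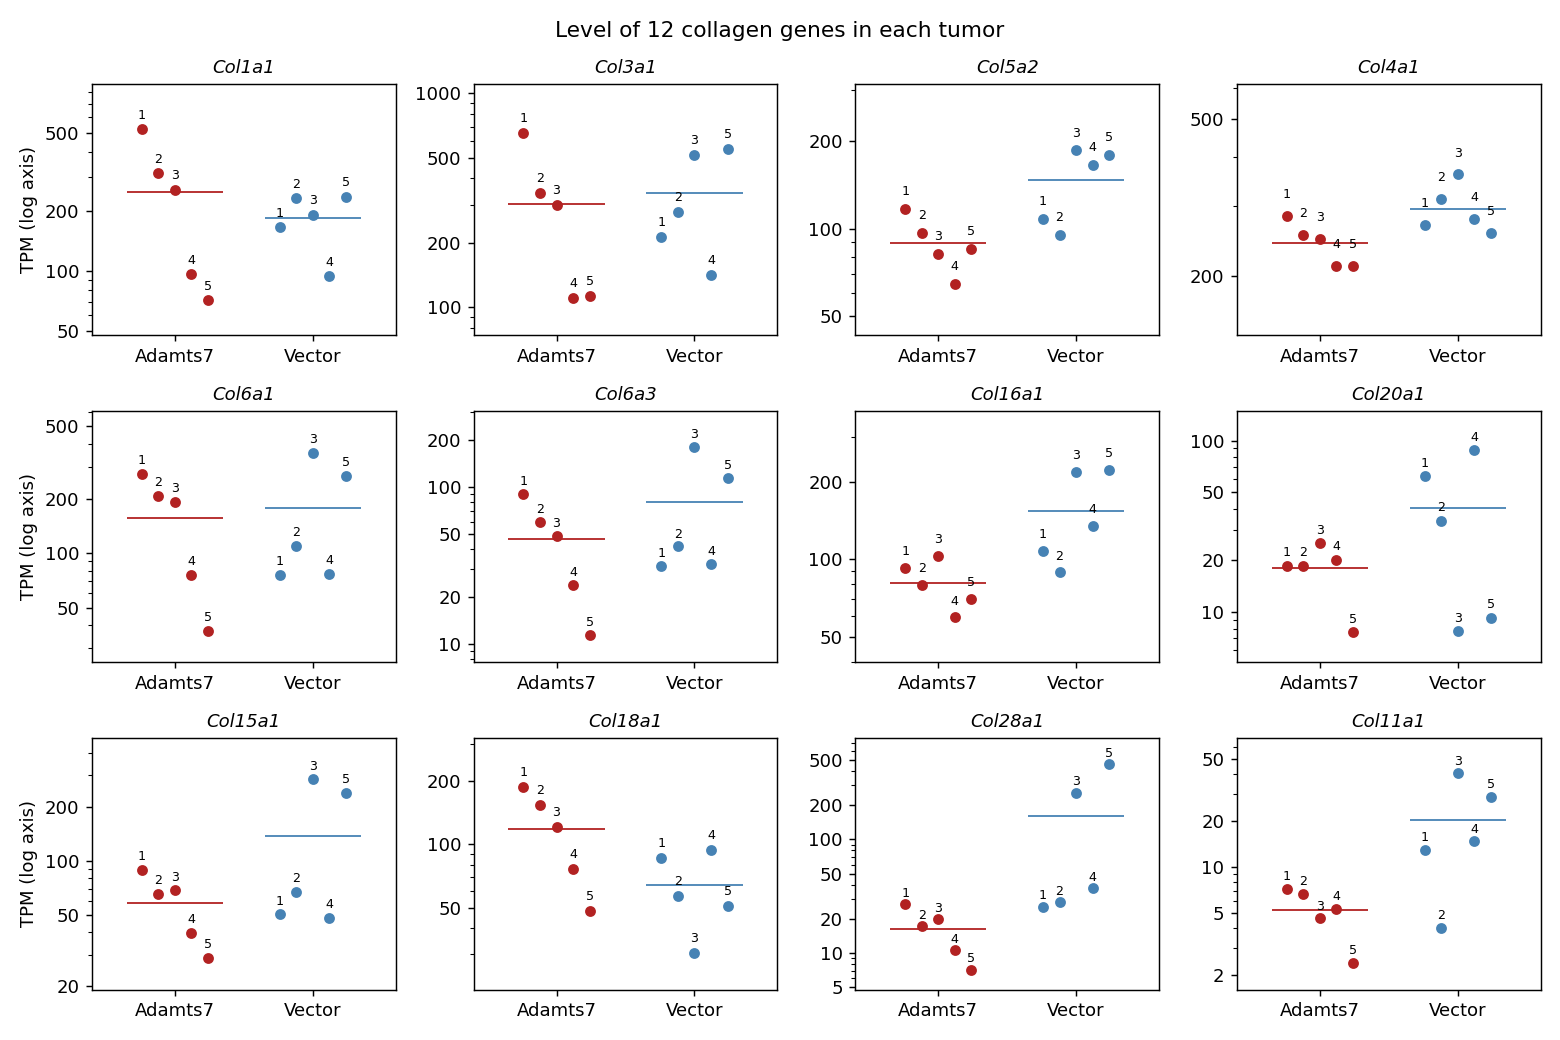
Points give the TPM (log y axis) of 12 collagen genes in each tumor, numbered within its group, with lines at the group means. The Adamts7 and vector points overlap in all 12 panels, and vector tumors 3 and 5 lie above the other 8 tumors for Col5a2, Col6a3, Col11a1, Col15a1, Col16a1 and Col28a1.

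Network collagens were the steadiest abundant class, with summed levels between 365 and 652 TPM, and 7 of 9 members were tested. None were called, 3 log2 fold changes were above and 4 below 0, and their median was -0.21. Col4a1 was at 284, 254, 248, 212 and 212 TPM in Adamts7 tumors and at 269, 314, 362, 279 and 257 TPM in vector tumors. Adamts7 tumors 2 to 5 were below every vector tumor and Adamts7 tumor 1 was above 3 of them. Col4a1 had a log2 fold change of -0.29 (SE 0.13, limma adjusted p = 0.247), and the highest tumor exceeded the lowest by 1.71-fold.

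Col4a2 was at 213, 215, 197, 161 and 135 TPM in Adamts7 tumors and at 216, 253, 246, 189.8 and 161 TPM in vector tumors. Its groups overlapped, with a log2 fold change of -0.21 (SE 0.17, limma adjusted p = 0.477). Endothelial markers, from cells that lay down type IV collagen, summed to 61.2 to 136 TPM in Adamts7 and 98.5 to 165 TPM in vector tumors, and pericyte markers to 52.8 to 105 and 56.6 to 127 TPM. Their part in the levels of these 2 chains was not tested.

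The type IV chains of specialised basement membranes were low. Col4a5, a chain known from kidney and smooth muscle basement membranes, was at 0.13 to 7.16 TPM. Col4a4 was at 0.73 to 2.92 TPM, and its log2 fold change was 0.36 (limma adjusted p = 0.377). In the authors' deposited table Col4a4 had a log2 fold change of 0.84 (adjusted p = 0.0509). Col4a3 and Col4a6 lay below the filter, with at most 0.52 and 0.03 TPM.

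Type VIII and type X collagens form hexagonal lattices in vessel walls, the eye and growth cartilage. Col8a1 was at 6.71 to 36.9 TPM in Adamts7 and at 13.9 to 51.7 TPM in vector tumors. Col8a2 was at 0.93 to 2.10 TPM in Adamts7 tumors and at 0.37 to 2.15 TPM in vector tumors, where tumors 3 and 5 were lowest. Col10a1 was at 3.22 to 7.81 TPM in Adamts7 and 4.35 to 19.5 TPM in vector tumors.

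Beaded filament collagens, the type VI chains of microfibrils that link cells to the matrix, varied more between tumors than the fibrillar and network classes. They summed to 548, 392, 362, 144 and 78.0 TPM in Adamts7 tumors and to 173, 235, 790.0, 158 and 561 TPM in vector tumors. Vector tumors 3 and 5 and Adamts7 tumor 1 were high, and the tumor labelled Adamts7 5 was lowest. Of 6 members, 3 were tested and 0 called. All 3 had log2 fold changes below 0 with a median of -0.33, and all 3 were above 0 without vector tumors 3 and 5, with a median of 0.36.

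Col6a1 was at 274, 206, 192, 75.7 and 37.3 TPM in Adamts7 tumors and at 75.6, 110.0, 359, 77.1 and 266 TPM in vector tumors. Its log2 fold change was -0.20 (SE 0.61, limma adjusted p = 0.871), and 0.53 without vector tumors 3 and 5. It was also above 0 when only vector tumor 3, only vector tumor 5 or only the tumor labelled Adamts7 5 was left out. Col6a2, its partner chain, was at 183, 126, 121, 44.2 and 28.9 TPM in Adamts7 and 64.8, 82.6, 246, 47.9 and 181 TPM in vector tumors, with a log2 fold change of -0.33 (SE 0.58, limma adjusted p = 0.759). The largest chain, Col6a3, was at 90.2, 59.7, 48.7, 23.9 and 11.4 TPM in Adamts7 and 31.6, 41.8, 179, 32.3 and 114 TPM in vector tumors, with a log2 fold change of -0.70 (SE 0.62, limma adjusted p = 0.520). In all 3 genes the order of the tumors was alike, with Adamts7 tumor 1 above Adamts7 tumors 2 and 3 and vector tumor 3 above vector tumor 5.

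The alternative type VI chains Col6a4, Col6a5 and Col6a6 were below the filter. Col6a4 was at 0.37, 0.29, 0.12, 0.27 and 0.13 TPM in Adamts7 tumors and at 0.74, 0.67, 1.22, 0.48 and 0.82 TPM in vector tumors. Col6a6 was at 0.04, 0.06, 0.01, 0.06 and 0.05 TPM in Adamts7 tumors and at 0.09, 0.09, 1.06, 0.07 and 0.16 TPM in vector tumors. In these 2 of the 44 genes every Adamts7 tumor was below every vector tumor, against 2.38% of all 29890 listed genes, and 0 were separated in the other direction, against 0.763%. The lowest vector and highest Adamts7 values of Col6a6 differ by little at such levels, and a limma fit without the filter gave Col6a4 and Col6a6 adjusted p-values of 0.146 and 0.501. Col6a5 was at 3.85 TPM in vector tumor 3 and at most 0.21 TPM elsewhere. RSEM, which made these values, shares out reads among similar genes by estimation, and the split among these 3 related genes is uncertain.

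FACITs had 9 members, of which 5 were tested and 0 called, with 2 log2 fold changes above and 3 below 0 and a median of -0.11. The FACIT median was 0.19 without vector tumors 3 and 5, with 3 of the 5 above 0. They summed to 95.6 to 160 TPM in Adamts7 tumors and to 151 to 254 TPM in vector tumors. Col16a1, which lies near basement membranes and on thin fibrils, was the most abundant. It was at 92.7, 79.5, 103, 59.5 and 70.2 TPM in Adamts7 tumors and at 108, 89.1, 219, 135 and 222 TPM in vector tumors. Only vector tumor 2 fell within the Adamts7 range. The means were 81.0 ± 17.3 and 155 ± 62.4 TPM (SD, n = 5 each), with a log2 fold change of -0.86 (SE 0.27), the smallest limma adjusted p of the family at 0.146. Without vector tumors 3 and 5 the value for Col16a1 was -0.45 (limma adjusted p = 0.399).

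Col20a1 was 1 of the 4 genes that were low in vector tumors 3 and 5. It was at 18.6, 18.6, 25.1, 20.2 and 7.60 TPM in Adamts7 tumors and at 62.0, 34.1, 7.70, 87.8 and 9.24 TPM in vector tumors. Vector tumors 1, 2 and 4 were above every Adamts7 tumor, whereas vector tumors 3 and 5 were near the tumor labelled Adamts7 5 at the bottom. Those 3 low tumors had melanocyte marker sums of 312, 1909 and 12470 TPM, while vector tumor 4, the highest for Col20a1, had 8375 TPM. Adipocyte markers summed to 95.4, 36.6 and 171 TPM in vector tumors 1, 2 and 4, those with the most Col20a1, and to 10.6 to 21.4 TPM in the other 7. Most of these sums was Fabp4, a fatty acid binding protein, and the defining marker Adipoq was at no more than 3.36 TPM. The part of these markers in the Col20a1 levels was not tested. The log2 fold change of Col20a1 was -0.65 (SE 0.64, limma adjusted p = 0.558) in all tumors and -1.70 (limma adjusted p = 0.127) without vector tumors 3 and 5. When the tumor labelled Adamts7 5 was removed too, a choice made after seeing the data, it was -1.44 (SE 0.28, limma adjusted p = 0.0287). In that fit Col20a1 was the 1 collagen gene of 30 called lower, where 4.62% of all genes were, and 0 were called higher, where 1.51% of all genes were. Fabp4 was called lower in the same fit (limma adjusted p = 0.0241).

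Col12a1, which binds type I fibrils, was at 25.5, 14.0, 11.8, 5.95 and 8.01 TPM in Adamts7 tumors and at 6.39, 12.1, 5.40, 8.06 and 6.03 TPM in vector tumors. Its groups overlapped, with a log2 fold change of 0.60 (SE 0.34, limma adjusted p = 0.331). Col14a1, another fibril-surface collagen of dense connective tissue, was at 5.37 to 21.6 TPM and Col9a3, a chain of cartilage type IX collagen, at 0.84 to 4.83 TPM over the 10 tumors. Col9a1, Col9a2, Col19a1 and Col22a1 were below the filter, with highest values of 0.45, 1.52, 0.06 and 0.3 TPM.

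Multiplexins are basement membrane collagens, and both members were abundant. Col15a1, the chain of type XV collagen, was at 88.7, 65.2, 68.4, 39.6 and 28.7 TPM in Adamts7 tumors and at 50.3, 67.0, 285, 47.9 and 239 TPM in vector tumors. Vector tumors 3 and 5 were far above the other 8, among which the groups overlapped. The log2 fold change of Col15a1 was -0.91 (SE 0.55, limma adjusted p = 0.353) with all tumors and -0.02 without vector tumors 3 and 5.

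Col18a1, the source of the fragment endostatin, was at 188, 154, 121, 76.3 and 48.4 TPM in Adamts7 tumors and at 86.5, 57.0, 30.6, 94.0 and 50.9 TPM in vector tumors. Adamts7 tumors 1 to 3 were above every vector tumor, and vector tumor 3, high for many collagens, was the lowest. The log2 fold change of Col18a1 was 0.82 (SE 0.40, limma adjusted p = 0.274), the highest of the 31 genes, and it was 0.44 without vector tumors 3 and 5.

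The other classes were low apart from Col28a1. Col13a1, a transmembrane collagen of cell adhesion sites, was at 2.74, 1.60, 1.60, 1.26 and 1.63 TPM in Adamts7 and 1.11, 2.20, 3.34, 1.96 and 7.91 TPM in vector tumors. Its log2 fold change of -0.47 (SE 0.35, limma adjusted p = 0.439) was 0.01 without vector tumors 3 and 5. Col17a1, Col23a1 and Col25a1, also transmembrane, lay below the filter. Col17a1, known from the hemidesmosomes of keratinocytes, was at 0.02 to 0.14 TPM, and the keratinocyte keratins Krt5 and Krt14 were at no more than 0.1 and 0.11 TPM. Krt10, another keratin of that list, was at 0 to 0.41 TPM in Adamts7 and 0.39 to 2.14 TPM in vector tumors, highest in vector tumor 5. Col23a1 was at 0.19 to 1.75 TPM, and Col25a1 at 1.89 TPM in the tumor labelled Adamts7 5 and at most 0.54 TPM elsewhere.

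Col7a1, the chain of anchoring fibrils that hold epithelia to the dermis, was at 4.40, 0.89, 2.03, 0.43 and 1.05 TPM in Adamts7 tumors. In vector tumors Col7a1 was at 0.35, 4.69, 8.25, 1.24 and 10.8 TPM. It spanned both low and high values in each group, with a log2 fold change of -0.88 (SE 0.61, limma adjusted p = 0.413) and of -0.07 without vector tumors 3 and 5.

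Col28a1, a collagen with von Willebrand domains known from peripheral nerve, had the most negative log2 fold change of the family. It was at 26.9, 17.1, 19.9, 10.7 and 7.15 TPM in Adamts7 tumors and at 25.6, 28.1, 258, 37.5 and 459 TPM in vector tumors. Vector tumors 3 and 5 were far above all others, and vector tumors 2 and 4 were also above every Adamts7 tumor. The means were 16.3 ± 7.74 and 162 ± 193 TPM (SD, n = 5 each), with a log2 fold change of -2.36 (SE 0.80, limma adjusted p = 0.165). Without vector tumors 3 and 5 the log2 fold change of Col28a1 was -0.97 (SE 0.37, limma adjusted p = 0.328). Col26a1, a little-studied collagen of the same group, was at 1.41, 0.39, 0.56, 0.31 and 0 TPM in Adamts7 tumors and 0.4, 1.15, 1.47, 1.09 and 4.24 TPM in vector tumors, with a log2 fold change of -0.71 (SE 0.36, limma adjusted p = 0.291).

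Chains that assemble in 1 trimer or fibril were compared as ratios within each tumor, which do not depend on how a library is scaled. For 6 pairs the mean log2 ratio of the groups was tested by exact permutation, two-sided, with adjustment over the 6 and a smallest possible p of 0.00794. None of the 6 passed the threshold. The ratio of Col4a1 to Col4a2, the genes with adjacent starts shown above, was the steadiest. It ran from 1.18 to 1.60 over the 10 tumors, with a difference of -0.07 on the log2 scale (exact p = 0.476, adjusted p = 0.571), or 0.0157 without vector tumors 3 and 5. Col6a1 to Col6a2 ran from 1.17 to 1.71 (difference 0.13, exact p = 0.238, adjusted p = 0.393), although Col6a1 varied 9.61-fold and Col6a2 8.50-fold between tumors.

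The ratio of Col1a1 to Col1a2 was 1.13, 1.22, 1.25, 1.06 and 0.887 in Adamts7 tumors and 1.08, 1.05, 0.758, 0.856 and 0.824 in vector tumors. Adamts7 tumors 1 to 3 were above every vector tumor, with a difference of 0.28 on the log2 scale (exact p = 0.0635, adjusted p = 0.333). Col3a1 to Col1a1 was 2.68 and 2.32 in vector tumors 3 and 5 and 1.10 to 1.59 in the other 8 (difference -0.46, exact p = 0.111, adjusted p = 0.333). Col8a1 to Col8a2 was 66.2 and 139.8 in vector tumors 3 and 5 and 5.08 to 23.0 in the other 8 (difference -1.22, exact p = 0.262, adjusted p = 0.393), and without those 2 tumors the difference was 0.0670. Col8a2 was at only 0.50 and 0.37 TPM in vector tumors 3 and 5, so their high ratios rest on low values of unknown read support.

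Col5a1 to Col5a2, chains of the same type V trimer, showed 1 tumor apart from its group. The ratio was 0.853, 0.795, 0.851 and 0.812 in Adamts7 tumors 1 to 4, 0.295 in the tumor labelled Adamts7 5 and 0.656, 0.635, 0.568, 0.544 and 0.602 in vector tumors. Adamts7 tumors 1 to 4 were thus above all vector tumors and the tumor labelled Adamts7 5 below them all. With all tumors the difference was 0.17 on the log2 scale (exact p = 0.722, adjusted p = 0.722). Without the tumor labelled Adamts7 5 it was 0.46 (exact permutation test, adjusted p = 0.0476). That p is the smallest the remaining tumors allow and only restates that Adamts7 tumors 1 to 4 lay above all vector tumors.

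**Figure D4:**
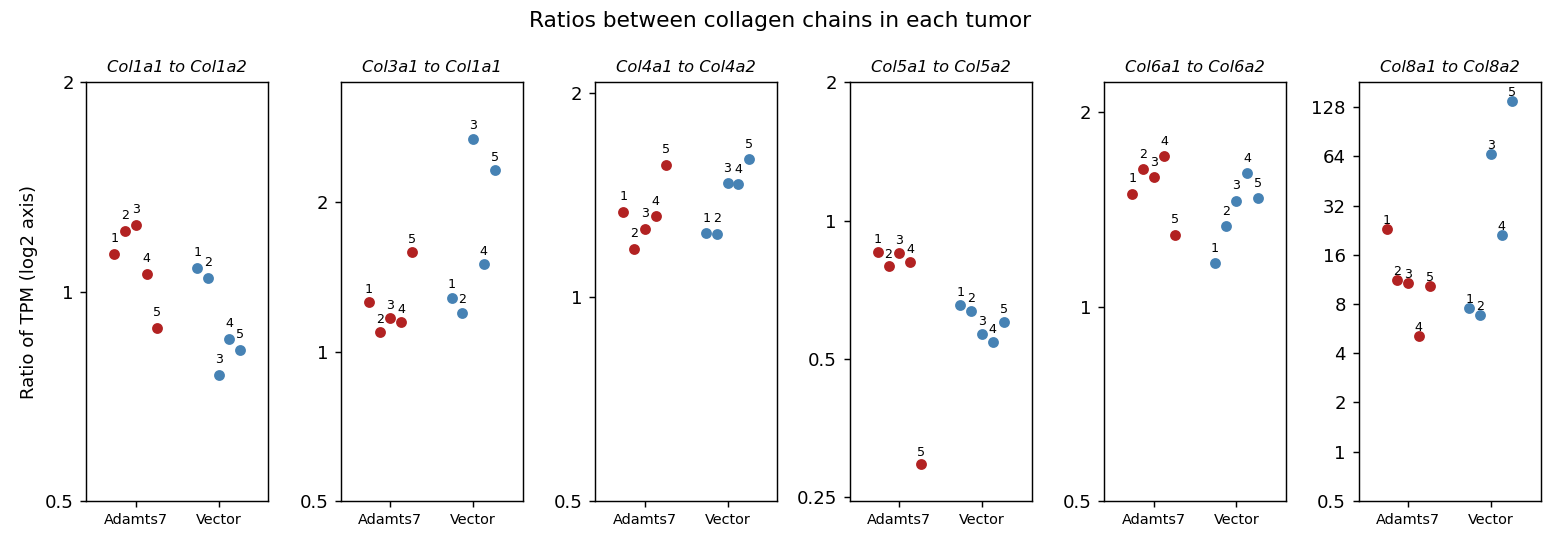
Points give the ratio of TPM between 2 collagen chains (log2 y axis) in each tumor, numbered within its group, for 6 pairs. The Col4a1 to Col4a2 ratio stays between 1.18 and 1.60, and the Col5a1 to Col5a2 ratio is 0.295 in the tumor labelled Adamts7 5. The Col8a1 to Col8a2 ratio reaches 139.8 in vector tumor 5, where Col8a2 was at only 0.37 TPM.

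The genes that make, trim, crosslink, cleave and bind collagen were taken as 5 lists with 48 genes, of which 41 were tested. By limma with adjustment 0 were higher and 0 lower, against 0.0262% and 0.196% of all tested genes. At an unadjusted p under 0.05, 2 were higher and 5 lower, shares near or below the 4.86% and 15.3% of all tested genes. Their median log2 fold change was -0.12, close to the -0.10 of all genes. The authors' deposited table holds 1 of 46 as higher and 3 as lower, near the 2.48% and 5.48% of all its genes.

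Of the 18 tested genes of chain hydroxylation and folding, 9 had log2 fold changes above and 9 below 0, with a median of 0.00149. In the fit without vector tumors 3 and 5, 6 were above 0 and the median was -0.11. P4ha1, a catalytic subunit of the prolyl hydroxylase that stabilises the helix, was at 160.4 ± 21.0 TPM in Adamts7 and 121 ± 29.2 TPM in vector tumors (SD, n = 5 each; log2 fold change 0.43, limma adjusted p = 0.209). Fkbp14, a proline isomerase of the endoplasmic reticulum, was at 26.7 ± 2.00 and 37.8 ± 9.68 TPM (log2 fold change -0.45, limma adjusted p = 0.190). P3h3, a member of the prolyl 3-hydroxylase family, was at 56.7 ± 5.75 and 68.4 ± 9.77 TPM (log2 fold change -0.26, limma adjusted p = 0.264). Serpinh1, the collagen chaperone HSP47, was at 379 to 665 TPM in Adamts7 and 372 to 579.8 TPM in vector tumors.

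Procollagen processing had 5 tested genes. Their log2 fold changes had a median of -0.17, or 0.27 without vector tumors 3 and 5, when Pcolce2 lay below the filter. Pcolce, which enhances removal of the C-terminal propeptide by Bmp1, was at 765, 777, 702, 604 and 847 TPM in Adamts7 tumors and at 559.7, 528, 513, 609.5 and 433 TPM in vector tumors. Adamts7 tumor 4 was below vector tumor 4, and all other Adamts7 tumors were above every vector tumor. For Pcolce, the log2 fold change was 0.48 (SE 0.13, limma adjusted p = 0.116), whereas the authors' deposited table gives 0.60 (SE 0.15, adjusted p = 0.00263). Pcolce2, its relative, was at 1.01 ± 0.623 and 2.46 ± 2.80 TPM, and Adamts14, which removes the N-terminal propeptide, at 5.79 ± 2.47 and 8.50 ± 5.04 TPM (SD, n = 5 each).

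Crosslinking enzymes had 5 members, all tested, with 3 log2 fold changes above and 2 below 0 and a median of 0.34. Without vector tumors 3 and 5 the median of this list was 0.61, with 4 above 0. Loxl3, a lysyl oxidase relative, was at 69.3, 57.4, 70.8, 55.7 and 24.7 TPM in Adamts7 tumors and at 72.0, 71.7, 132, 80.6 and 89.6 TPM in vector tumors. Every Adamts7 tumor was below every vector tumor, by a narrow margin between Adamts7 tumor 3 and vector tumor 2. Loxl3 had a log2 fold change of -0.72 (SE 0.28, limma adjusted p = 0.204). Of the 41 genes, 2 separated the groups in this direction, Loxl3 and Crtap, a partner of prolyl 3-hydroxylation at 76.0 to 92.7 and 93.7 to 100.2 TPM, against 3.78% of all tested genes. Loxl2 was at 14.5 ± 9.75 TPM in Adamts7 and 7.67 ± 2.04 TPM in vector tumors (log2 fold change 0.59, limma adjusted p = 0.445). Loxl4 reached 20.6 and 11.0 TPM in vector tumors 3 and 5, and was at most 2.22 TPM elsewhere.

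All 6 tested genes of collagen cleavage and uptake had log2 fold changes below 0, and without vector tumors 3 and 5 the number above 0 was 5. Ctsk, the collagen-degrading protease cathepsin K, was at 27.0, 16.3, 15.4, 8.21 and 29.1 TPM in Adamts7 tumors and at 18.4, 30.7, 73.5, 23.9 and 79.7 TPM in vector tumors (log2 fold change -1.08, SE 0.46, limma adjusted p = 0.225). Mmp9, a gelatinase, reached 13.0 and 22.0 TPM in vector tumors 3 and 5, and lay at 0.71 to 2.07 TPM in the other 8. Mmp14, a membrane-bound collagenase, reached 254 and 272 TPM in vector tumors 3 and 5, and lay at 143 to 211 TPM in the others. Mmp9 had a log2 fold change of -1.07 (SE 0.71, limma adjusted p = 0.396) and was not called. In the authors' deposited table Mmp9 had a log2 fold change of -2.36 (adjusted p = 0.0493).

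Among 7 tested collagen receptors, 2 log2 fold changes were above and 5 below 0. Lair1, an inhibitory receptor of immune cells that binds collagen, was at 12.5, 6.00, 6.72, 5.91 and 4.13 TPM in Adamts7 tumors and at 5.79, 10.7, 47.1, 13.8 and 54.1 TPM in vector tumors. Vector tumors 3 and 5, which also had the highest T cell and macrophage marker sums, had the highest Lair1 levels. The log2 fold change of Lair1 was -1.38 (SE 0.55, limma adjusted p = 0.210). Most of the macrophage sum in vector tumors 3 and 5 was C1qa, at 1197 and 1072 TPM. Cd68 of the same list was at 162 and 158 TPM in them, and lower only in the tumor labelled Adamts7 5. Cd163 was highest in vector tumor 3 at 7.27 TPM, but at 2.51 TPM in vector tumor 5. The collagen-binding integrin subunits Itga2 and Itga10 were at 24.1 and 17.0 TPM in vector tumor 3 and at 26.4 and 15.4 TPM in vector tumor 5. In the other 8 tumors Itga2 was at 2.56 to 10.9 TPM and Itga10 at 0.41 to 1.92 TPM. For Itga10 the log2 fold change was -1.28 (SE 0.68, limma adjusted p = 0.303), and -0.08 without vector tumors 3 and 5. The authors' deposited table gives log2 fold changes of -1.79 for Lair1 (adjusted p = 0.0237) and -2.60 for Itga10 (adjusted p = 0.0195).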

How the data were processed

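Per the labels' protocols, total RNA received spike-ins, poly(A) RNA was selected, molecular identifiers were built into the cDNA, and paired reads of 150 bases were demultiplexed with bcl2fastq 2.17. The sources used here do not give the annotation or say whether identifiers and spike-ins were used in counting. The authors deposited log2(TPM + 1) values per gene, and the submitters' processing notes name RSEM and mm39. Raised back to TPM, these log2 values sum to 995286 to 998019 per tumor. The authors' deposited table of fold changes holds, for each gene, a normalized signal averaged over tumors, the log2 fold change and its standard error, a test score and p-values before and after adjustment, and the submitters' processing notes name DESeq2. Its gene identifiers were paired with symbols for 28805 of 30040. The antigen receptor table was not used here, and some marker values are not reported here.

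Genes averaging 1 TPM or more were tested with limma 3.58.1 (R 4.3.3). The log2(TPM + 1) values were fitted, a scale that understates changes of low genes. The prior variance followed a trend, the model held only the group, and p-values were adjusted by Benjamini-Hochberg over 15276 genes at 0.05. The script was tested on simulated data. Ratios were computed on TPM with Python 3.11.15 and pandas 2.3.3, and compared over all arrangements of 5 against 5 tumors. The promoter windows come from RefSeq on GRCm38.p6, an older build than that of the files, so their coordinates locate only the printed sequence.

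The members, lists, tests and settings were chosen with earlier results of these data known. The rule for genes given in full takes, in each class, called genes, the 2 most abundant tested members, the member with the smallest p, and up to 8 genes whose groups do not overlap, and in each pathway list called genes and the 3 members with the smallest p. Genes outside it, such as Col1a2, Col4a4, Col11a1, Col12a1, Col27a1, Crtap and Serpinh1, were named after their values or the authors' calls were seen. Alternatives were a pseudocount of 0.1 TPM, 2 other filters, 2 other scalings, a fit with no variance trend, weights per tumor, a replicate block and each tumor left out in turn. A fit that drops vector tumors 3 and 5, and another that also drops the tumor labelled Adamts7 5, were added after seeing the data.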

Additional observations from a re-analysis of the deposited data

Results flagged for a closer look

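Within groups of 5 tumors, the gap of the highest or lowest tumor to its neighbor was compared with the range of the group, by Dixon's 95% critical value. Gaps and ranges were taken on log2(TPM + 1) for genes and on log2 for ratios, and not on the TPM printed below. Of 78 groups checked over the named genes and ratios, 5 passed, a share near the 1 in 20 that chance flags. In 4 of the 5 the tumor apart was the one labelled Adamts7 5, the tumor with 18.2 TPM of Adamts7. Whether the tumor labelled Adamts7 5 was flagged more often than chance allows was not tested. It was the lowest Adamts7 tumor for Col20a1 at 7.60 TPM, for the crosslinking gene Loxl3 at 24.7 TPM and for the integrin subunit Itga2 at 2.56 TPM. Its ratio of Col5a1 to Col5a2 was 0.295, the lowest of its group. The remaining tumor was vector tumor 3, with the highest Col6a6 level of its group at 1.06 TPM.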

How the results depend on the processing

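Counts of called collagen and pathway genes were 0 in each direction in all settings but one. Without vector tumors 3 and 5 and the tumor labelled Adamts7 5, 1 collagen gene, Col20a1, was called lower. Without vector tumors 3 and 5, the ratio of Col4a1 to Col4a2 differed by 0.0157 and that of Col8a1 to Col8a2 by 0.0670 on the log2 scale, on the other side of 0, and the latter by 0.0855 with the tumor labelled Adamts7 5 also removed. Leaving out 1 tumor at a time gave 0.0811 to 0.46 for Col5a1 to Col5a2, past the threshold only without the tumor labelled Adamts7 5.

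Among named genes, 592 values kept their direction and their side of the threshold, 32 changed direction, and 4 passed the threshold, 3 of them of Adamts7 itself and 1 of Col20a1. Without vector tumors 3 and 5 the log2 fold changes became 0.25 for Col3a1, 0.53 for Col6a1, 0.36 for Col6a2, 0.10 for Col6a3, 0.00599 for Col13a1, 0.15 for Adamts14, 0.00656 for Loxl4, 0.20 for Mmp9 and 0.00322 for Mmp14. Without the tumor labelled Adamts7 5 as well, they were 0.52, 0.97, 0.72, 0.51, 0.0188, 0.28, 0.17, 0.29 and 0.0495 in that order, and 0.21 for Col15a1. Weighting tumors gave 0.28 for Col3a1, 0.66 for Col6a1, 0.46 for Col6a2, 0.15 for Col6a3, 0.0728 for Pcolce2 and 0.0455 for Adamts14. Leaving out 1 tumor gave -0.20 to 0.52 for Col1a1, -0.48 to 0.23 for Col6a1 and -0.62 to 0.0384 for Col6a2. The cause of these changes was not tested.

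Quantile normalization moved the median of all genes by 0.14, to 0.04, and left 23 of 31 collagen genes below 0 with a median of -0.26. Median-of-ratios scaling left 24 below 0 with a median of -0.29. Replicate numbers were not taken to pair the tumors in the main test. Same-numbered tumors correlated at -0.28 to 0.26 in their deviations from the group means, and 2 of 10 correlated best with their own number. With so few tumors these values cannot exclude that the numbers stand for a shared condition. With the replicate block the counts of called genes stayed at 0, and the Col5a1 to Col5a2 ratio differed by 0.17 (exact sign-flip test, adjusted p = 0.688, smallest possible unadjusted p 0.0625). TPM keeps no depth, so a limit of detection for the 13 collagen genes below the filter cannot be given.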

Other observations

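The makeup of the collagen transcripts differed between tumors as well as their sum. Fibrillar collagens took 37.3% to 54.9% of collagen TPM, with Adamts7 tumor 1 highest. Network collagens took 32.1% and 35.9% in Adamts7 tumors 4 and 5, the tumors with the lowest sums, and 15.8%, 17.8% and 13.6% in Adamts7 tumor 1 and vector tumors 3 and 5, those with the highest. Beaded filament collagens took 7.67% in the tumor labelled Adamts7 5 and 21.5% in vector tumor 3. Multiplexins held between 6.00% and 9.60% in all tumors. Col28a1 alone took 7.03% and 13.0% of collagen TPM in vector tumors 3 and 5 and 0.703% to 2.14% in the other 8. These are descriptions and carry no test.

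The tumor labelled Adamts7 5 was lowest for 16 of 31 collagen genes but not for all matrix genes. Plod2, a lysyl hydroxylase of collagen telopeptides, was at 132 TPM in it and at 32.5 to 85.3 TPM in the other 9 tumors. Mmp2, a gelatinase, was at 169.9 TPM in it and at 15.2 to 126 TPM in the others. Ddr2, a receptor for fibrillar collagen, was at 44.0 TPM in it and at 4.63 to 35.3 TPM in the others. These 3 genes were chosen after their values were seen.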
